A study of Mus musculus with 35 samples.

Results

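The 30 genes described here make, regulate and move cholesterol. They were taken by name from a list of the enzymes, regulators and transporters of this pathway, and all 30 were present among the 32863 genes kept from the count table. 29 matched by symbol, and Msmo1 was listed under its older symbol Sc4mol and was matched by its Ensembl identifier. RNA was sequenced from the striatum, the brain region most affected in Huntington disease, of 35 mice with 1 library per mouse, at 21.71 to 23 weeks of age. There were 4 genotype groups: 8 Htt+/+ Hdac2 WT mice, 7 HttQ111/+ Hdac2 WT mice, 9 Htt+/+ Hdac2 KO mice and 11 HttQ111/+ Hdac2 KO mice.

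In the HttQ111 allele an expanded CAG repeat was knocked into the mouse huntingtin gene. HttQ111/+ mice carry 1 such allele, and its length was 110 to 140 CAG repeats in mice with Hdac2 WT and 110 to 144 in those with Hdac2 KO. Hdac2 encodes a class I histone deacetylase. Hdac2 KO mice had both Hdac2 alleles flanked by loxP sites and a Cre transgene driven by the Ppp1r1b (DARPP-32) promoter, so that deletion was directed to medium-spiny neurons (MSNs), and glia, vessels and other striatal neurons kept an intact gene. The Hdac2 WT mice had floxed alleles too, on both copies except in 2 Htt+/+ mice with 1, but none carried Cre. An effect of Cre itself and of the Hdac2 deletion therefore cannot be told apart in these libraries.

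Total counts ranged from 50970712 to 77867348 per library, and the members had 275 or more counts in every library. Hdac2 counts over the gene as a whole were 97.6 to 107 CPM (counts relative to a library size scaled by TMM, the trimmed mean of M values) in Htt+/+ Hdac2 WT and 89.4 to 99.2 CPM in Htt+/+ Hdac2 KO mice, and fell by 0.12 on the log2 scale in HttQ111/+ mice (edgeR adjusted p = 0.00198) with -0.09 in Htt+/+ mice (adjusted p = 0.0552). Only some exons are flanked by loxP sites, so these whole-gene counts do not measure how complete the deletion was. The authors report a marked loss of reads over the deleted exons in KO mice. MSN markers were abundant throughout (Ppp1r1b 1010 to 1990 CPM, Drd1a 305 to 480 CPM), and the astrocyte gene Aqp4 was present at 99.1 to 145 CPM, so each library holds RNA of several cell types. RNA extraction dates nearly followed the Hdac2 genotype: 1 Htt+/+ Hdac2 KO library was extracted on 27 May together with Hdac2 WT libraries, and 1 HttQ111/+ Hdac2 KO library on 25 May.

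In the adult brain cholesterol is made locally, because lipoproteins of the blood do not cross the blood-brain barrier. Acetyl-CoA is condensed and reduced to mevalonate, mevalonate is converted to isoprenoid units and squalene, and squalene is cyclised to lanosterol and trimmed to cholesterol. SREBP2, the product of Srebf2, is a transcription factor held in the endoplasmic reticulum by the sterol sensor SCAP and the INSIG proteins; when sterols are low SCAP carries it to the Golgi, proteases release it, and it switches on the synthesis enzymes. Astrocytes release cholesterol on ApoE particles through ABC transporters under the control of LXR, and neurons dispose of excess by the CYP46A1 hydroxylase. Lower brain cholesterol synthesis is known from other Huntington disease models.

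SREBP2 binds the sterol regulatory element (SRE) beside NF-Y, a factor that binds CCAAT, and the promoters of 7 members are shown because these genes either lead the co-variation described last (Hmgcs1, Mvd, Msmo1) or passed the test of the Hdac2 KO effect in both Htt backgrounds (Srebf2, Insig2, Acat2, Abca1). Each is the 150 bases from position -150 to -1 before the first start listed for the gene by RefSeq (GRCm38.p6), and capitals mark matches to the SRE, searched as TCACNCCAC, or to CCAAT on either strand (ATTGG on the opposite strand).
Hmgcs1, chr13:119690201-119690350, plus strand: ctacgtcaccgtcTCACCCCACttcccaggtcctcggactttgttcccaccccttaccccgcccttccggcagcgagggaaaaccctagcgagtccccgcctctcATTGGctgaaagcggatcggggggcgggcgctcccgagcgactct
Mvd, chr8:122443423-122443572, minus strand: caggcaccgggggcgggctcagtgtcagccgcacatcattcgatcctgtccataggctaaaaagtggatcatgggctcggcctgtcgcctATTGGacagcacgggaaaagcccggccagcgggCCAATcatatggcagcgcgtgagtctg
Msmo1, chr8:64733579-64733728, minus strand: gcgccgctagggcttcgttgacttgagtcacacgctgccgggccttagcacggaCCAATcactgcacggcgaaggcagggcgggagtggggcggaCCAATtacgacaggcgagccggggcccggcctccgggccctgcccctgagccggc
Srebf2, chr15:82147119-82147268, plus strand: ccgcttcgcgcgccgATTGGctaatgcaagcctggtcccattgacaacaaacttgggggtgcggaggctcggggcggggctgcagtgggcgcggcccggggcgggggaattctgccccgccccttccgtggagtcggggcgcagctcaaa
Insig2, chr1:121332590-121332739, minus strand: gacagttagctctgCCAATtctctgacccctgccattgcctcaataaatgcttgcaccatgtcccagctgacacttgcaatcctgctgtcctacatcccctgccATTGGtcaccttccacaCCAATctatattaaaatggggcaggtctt
Acat2, chr17:12960726-12960875, minus strand: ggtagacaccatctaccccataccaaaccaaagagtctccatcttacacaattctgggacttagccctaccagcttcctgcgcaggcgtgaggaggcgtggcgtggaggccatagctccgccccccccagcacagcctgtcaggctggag
Abca1, chr4:53159896-53160045, minus strand: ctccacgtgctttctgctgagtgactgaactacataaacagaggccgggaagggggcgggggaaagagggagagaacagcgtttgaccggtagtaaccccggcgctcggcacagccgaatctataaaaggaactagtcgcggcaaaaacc

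RefSeq promoters of 300 bases (250 before to 50 after the start) were held for 24 of the 30 members. CCAAT was found on either strand in 18 of the 24, against 37.9% of all 27025 genes with a promoter in the same table and 38.1% of the 11620 of these that were tested here. 9 of the 24 members had 2 or more CCAAT matches (Ebp, Hmgcs1, Hsd17b7, Idi1, Insig2, Msmo1, Mvd, Mvk and Nsdhl), against 12.2% of all genes. The SRE letters were found in Hmgcs1 alone, at position -137, and in 1.22% of all genes. GGGCGG, the GC box, was in 19 of the 24 members and in 35.9% of all genes (62.1% of those tested), and the E-box CACGTG was in 5 (Abca1, Hsd17b7, Insig1, Sc5d and Scap) and in 7.24% of all genes. Insig2 has further starts, and which is used in striatum was not examined. These matches are letters in a window and were not tested as binding sites.

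Per kilobase of exon in Htt+/+ Hdac2 WT mice, the most abundant member was Apoe, the main lipoprotein of the brain, at 456 ± 38.6 CPM per kb (SD, n = 8). Cyp46a1, which hydroxylates cholesterol to 24S-hydroxycholesterol in neurons, followed at 78.4 ± 6 CPM per kb. Next came Hmgcs1, the synthase that makes the precursor of mevalonate, at 45.2 ± 3.72 CPM per kb and Srebf2 at 33.1 ± 0.889 CPM per kb. Each of these 4 stood clear of the next member in every library. From Msmo1 at 17.8 ± 2.1 CPM per kb down to Fdps at 3.45 ± 0.189 CPM per kb, every neighbouring pair in the order overlapped between libraries. The lowest levels on this scale were those of Dhcr7, the reductase of a final step to cholesterol (2.75 ± 0.205 CPM per kb), Idi1, which isomerises the isoprenoid unit (2.07 ± 0.332 CPM per kb), and Lss, which cyclises squalene epoxide to lanosterol (1.71 ± 0.0682 CPM per kb). Whether reads in introns were counted is not given in the sources used here, and the division by exon length takes no account of them. The exon length was the union of all annotated exons of a gene, 10787 nt for Lss and 5817 nt for Dhcr7. It can exceed the length of the transcript in use, so the order depends on it. Before the division Lss had a mean of 18.4 CPM, above Dhcr7 (16 CPM) and Idi1 (7.26 CPM). The within-group SD of the log2 CPM of a member was between 0.06 (Abcg1) and 0.24 (Mvd and Insig1), with a median of 0.13.

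The first question was how loss of Hdac2 from MSNs bears on the pathway. In Htt+/+ mice (contrast 1, Hdac2 KO against Hdac2 WT) the pathway did not move one way: 5 members rose, 4 fell and 21 did not pass the threshold of 0.05 on the adjusted p. The 9 called members compare with 17.8% of all 17126 genes tested in this contrast, of which 9.06% rose and 8.79% fell. Those that rose were the late sterol enzymes Dhcr7, Ebp and Sc5d, the sterol sensor partner Insig2 and the efflux transporter Abca1. Those that fell were the regulator Srebf2, the thiolase Acat2 (which makes acetoacetyl-CoA), the transporter Abcg1 and the hydroxylase Cyp46a1. The median log2 fold change of the 30 was 0.05, beside -0.00 over all genes tested.

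In HttQ111/+ mice (contrast 2, Hdac2 KO against Hdac2 WT) 3 members rose (Insig2, Abca1 and Nr1h2, which encodes LXR-beta), 3 fell (Srebf2, Acat2 and Hsd17b7) and 24 did not pass, beside 16.5% of all 17169 genes called (7.68% rose and 8.86% fell). The median over the members was -0.02 (-0.00 over all genes tested). Contrasts 1 and 2 compare different libraries, although each was fitted over all 35. Srebf2, Acat2, Insig2 and Abca1 were called in both with the same direction, which is 44.4% of the calls of contrast 1 and 66.7% of those of contrast 2; over all genes tested in both, these shares were 64.1% and 69%. None of the 30 members passed the test of the difference between both contrasts (the interaction, called for 0.00577% of genes). At a nominal p under 0.05, 4 members passed for the interaction, beside 5.63% of all genes, and DESeq2 also called 0.

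**Figure D1:**
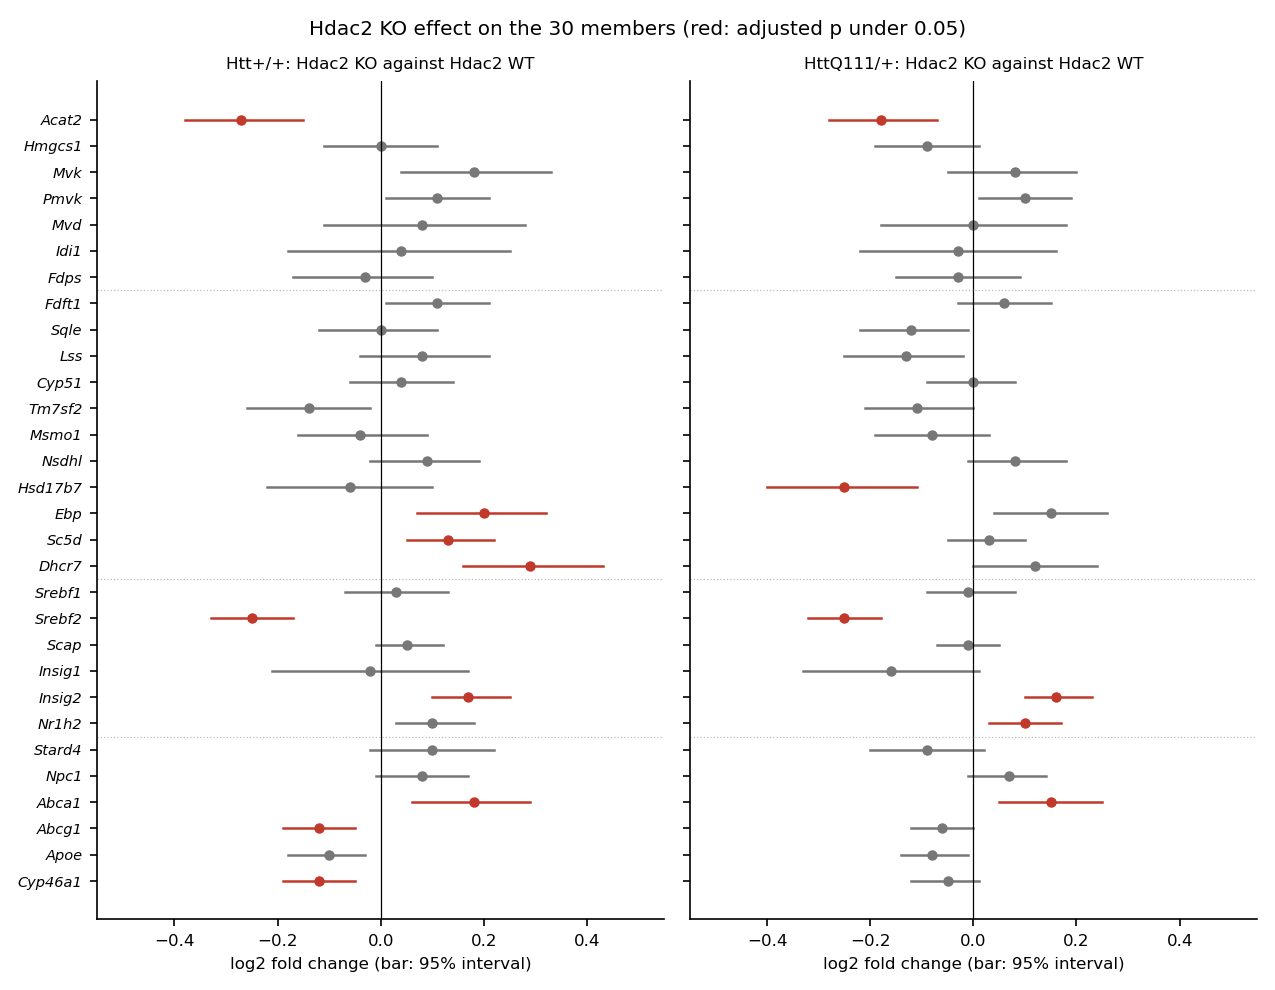
Log2 fold change (x axis) of each of the 30 members (y axis) with Hdac2 KO in Htt+/+ mice (left) and in HttQ111/+ mice (right), from edgeR; bars are 95% intervals and red marks an adjusted p under 0.05. Dotted lines separate, from the top, mevalonate and isoprenoid enzymes, squalene and sterol enzymes, regulators, and transport genes; Srebf2 lies at -0.25 in both panels and the medians of the panels are 0.05 and -0.02.

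Among the regulators, Srebf2 showed the smallest p of the 30 in each Hdac2 contrast. Srebf2 (chr15:82147266-82205376, plus strand) was at 229, 238 and 247 CPM (lowest, median, highest) in Htt+/+ Hdac2 WT and at 190, 207 and 228 CPM in Htt+/+ Hdac2 KO mice. The ranges of these groups did not overlap. In HttQ111/+ mice Srebf2 was at 201, 216 and 242 CPM with Hdac2 WT and at 166, 194 and 214 CPM with Hdac2 KO; these ranges overlapped, with all 11 KO libraries below the WT median. Srebf2 fell by 15.8% in Htt+/+ mice (log2 fold change -0.25, SE 0.04, edgeR adjusted p = 3.77e-05) and by 16.1% in HttQ111/+ mice (-0.25, SE 0.037, adjusted p = 8.47e-06), and the difference between these changes was 0.00 with a 95% interval of -0.09 to 0.10. The lowest level was in mice with both alleles: against Htt+/+ Hdac2 WT, Srebf2 fell by 19.2% in HttQ111/+ Hdac2 KO mice (adjusted p = 6.79e-07).

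Insig2, an anchor that holds SCAP and SREBP2 in the endoplasmic reticulum, moved the other way. Insig2 (chr1:121304353-121332550, minus strand) had 52.9, 57.9 and 72.7 CPM in Htt+/+ Hdac2 WT and 56.8, 64.1 and 71.8 CPM in Htt+/+ Hdac2 KO mice, and 52, 57 and 63.4 CPM against 56.9, 65.2 and 71.2 CPM in HttQ111/+ mice. The groups overlapped in both, with 8 of 9 and 9 of 11 KO libraries above the WT median. Insig2 rose by 12.8% in Htt+/+ mice (log2 fold change 0.17, SE 0.038, adjusted p = 0.00145) and by 12.1% in HttQ111/+ mice (0.16, SE 0.035, adjusted p = 0.00112). In Htt+/+ mice the call was lost under 5 of 15 alternatives, among them no surrogate variables (0.10, adjusted p = 0.19) and the ID series, the first letter of the mouse ID, as covariate (adjusted p = 0.0584), in a range of 2.59e-04 to 0.623. In HttQ111/+ mice it was lost under 1, with the extraction date (range 1.17e-04 to 0.591). Nr1h2, the LXR-beta receptor for oxysterols, had 32.7, 36.9 and 39.3 CPM in Htt+/+ Hdac2 WT and 38.4, 41.9 and 47.3 CPM in Htt+/+ Hdac2 KO mice, and 31.8, 36 and 41.9 CPM against 33, 42 and 45.4 CPM in HttQ111/+ mice. Its change was 0.10 in each background, with an adjusted p of 0.0446 in HttQ111/+ and 0.0708 in Htt+/+ mice, and the difference between both was 0.01 with a 95% interval of -0.08 to 0.10. Without HttQ111/+ Hdac2 KO replicate 1, the deepest library (left out after the totals were seen), the adjusted p in HttQ111/+ mice was 0.0714, in a range of 0.0016 to 0.402 over 15 alternatives. In Htt+/+ mice Nr1h2 passed without surrogate variables (0.21, adjusted p = 0.00509) and with the compared groups alone (0.17, adjusted p = 8.59e-04). It did not pass there with the extraction date. Scap, Insig1 and Srebf1, the SREBP1 gene of fatty acid synthesis, did not pass in the main fit of either contrast. Their log2 fold changes lay between -0.16 (Insig1 in HttQ111/+ mice) and 0.05 (Scap in Htt+/+ mice). Srebf1 passed in Htt+/+ mice with the compared groups alone (0.15, adjusted p = 0.0174), but not without surrogate variables.

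**Figure D2:**
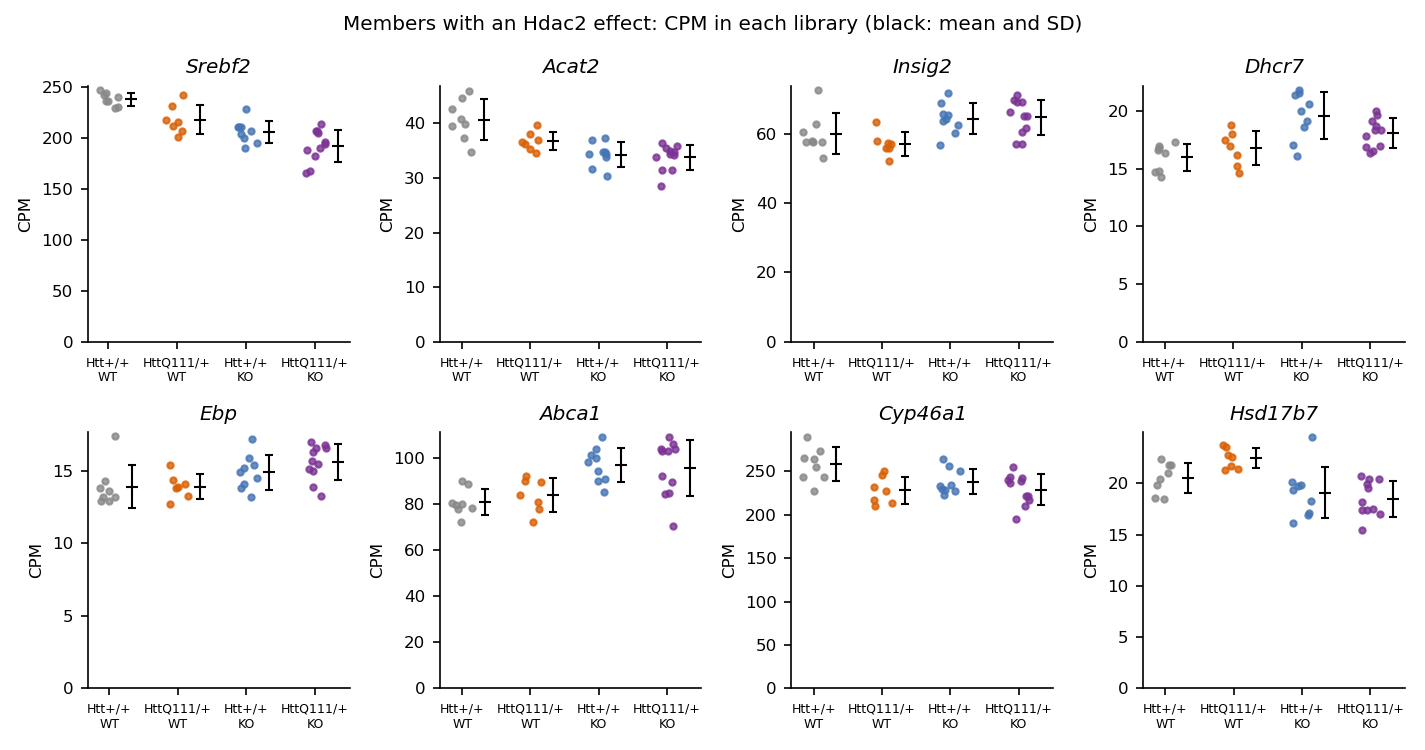
CPM (y axis, from 0) of 8 members with an Hdac2 effect in each library of the 4 genotype groups (x axis; WT and KO refer to Hdac2); each point is a mouse and black marks give the mean and SD. Srebf2 falls from 229 to 247 CPM in Htt+/+ Hdac2 WT to 190 to 228 CPM in Htt+/+ Hdac2 KO, and Hsd17b7 of HttQ111/+ mice falls from 21.3 to 23.7 CPM to 15.4 to 20.7 CPM.

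Of the 7 enzymes of the mevalonate and isoprenoid steps, Acat2 was the member called in contrasts 1 and 2. Acat2 (chr17:12942890-12960747, minus strand) was at 34.7, 40.4 and 46 CPM in Htt+/+ Hdac2 WT and at 30.3, 34.5 and 37.3 CPM in Htt+/+ Hdac2 KO mice. In HttQ111/+ mice it was at 34.6, 36.6 and 39.8 CPM with Hdac2 WT and at 28.6, 34.5 and 36.4 CPM with Hdac2 KO. Every KO library lay below the WT median of its background, although the ranges overlapped. Acat2 fell by 17% in Htt+/+ mice (-0.27, SE 0.059, adjusted p = 0.00142) and by 11.6% in HttQ111/+ mice (-0.18, SE 0.054, adjusted p = 0.0205). The other enzymes up to farnesyl diphosphate were Hmgcs1, the mevalonate kinase Mvk, the phosphomevalonate kinase Pmvk, the decarboxylase Mvd, Idi1 and the synthase Fdps. None passed in the main fit of either contrast, with values from -0.09 (Hmgcs1 in HttQ111/+ mice) to 0.18 (Mvk in Htt+/+ mice, adjusted p = 0.0854). For Hmgcs1, the most abundant of these, the interval of the change in Htt+/+ mice was -0.11 to 0.11. In Htt+/+ mice Pmvk passed under some alternatives, among them no surrogate variables (0.22, adjusted p = 0.00577), but not with the extraction date or in males only. In HttQ111/+ mice it passed with the ID series (0.16, adjusted p = 0.0415). Mvk passed in Htt+/+ mice with the compared groups alone (0.15, adjusted p = 0.0311).

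Among the 11 enzymes of the squalene and sterol steps, 3 rose in Htt+/+ mice and 1 fell in HttQ111/+ mice. Dhcr7 had 14.3, 16.5 and 17.3 CPM in Htt+/+ Hdac2 WT and 16.1, 20 and 21.8 CPM in Htt+/+ Hdac2 KO mice, with 8 of 9 KO libraries above the WT median. It rose by 22.6% (0.29, SE 0.07, adjusted p = 0.003), the largest rise of a member there. With the extraction date as covariate or the replicate number as a block the call was lost, and over 15 alternatives the change lay between 0.07 and 0.34 and the adjusted p between 2.81e-04 and 0.738. In HttQ111/+ mice Dhcr7 was at 14.6, 17 and 18.8 CPM with Hdac2 WT and at 16.4, 18.4 and 20 CPM with Hdac2 KO (0.12, adjusted p = 0.204). The difference between both changes, -0.17 with a 95% interval of -0.33 to -0.01, had a nominal p of 0.0489 and an adjusted p of 0.881 in edgeR.

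Ebp, the sterol isomerase, had 12.9, 13.4 and 17.4 CPM in Htt+/+ Hdac2 WT, where the highest library stood apart, and 13.2, 14.9 and 17.2 CPM in Htt+/+ Hdac2 KO mice. It rose by 14.5% (0.20, SE 0.064, adjusted p = 0.0318), a call lost under 8 of 15 alternatives. Among these were no surrogate variables (0.10, adjusted p = 0.246) and the compared groups alone (0.08, adjusted p = 0.368). Without Htt+/+ Hdac2 KO replicate 8 (left out after the values were seen) the adjusted p was 0.0656. The changes ran from 0.08 to 0.28 and the adjusted p from 0.00707 to 0.574. In HttQ111/+ mice Ebp was at 12.7, 13.9 and 15.4 CPM against 13.3, 15.7 and 17 CPM (0.15, adjusted p = 0.0579). Sc5d, the sterol desaturase of the next step, had 42.5, 46.7 and 49.4 CPM in Htt+/+ Hdac2 WT and 47.2, 49.7 and 54.8 CPM in Htt+/+ Hdac2 KO mice, all 9 above the WT median. It rose by 9.67% (0.13, SE 0.043, adjusted p = 0.0304), a call lost under 7 of 15 alternatives, among them no surrogate variables (adjusted p = 0.051), the ID series (0.159) and males only (0.0777), with changes of 0.07 to 0.17 and a range of 0.0224 to 0.524. Its HttQ111/+ values of 44.2, 47.3 and 53 CPM and of 42.7, 49.3 and 53.5 CPM largely coincided (0.03, adjusted p = 0.716).

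Hsd17b7, the ketoreductase that works on sterol intermediates, stood lower with Hdac2 KO in HttQ111/+ mice. It was at 21.3, 22.6 and 23.7 CPM in HttQ111/+ Hdac2 WT and at 15.4, 18.2 and 20.7 CPM in HttQ111/+ Hdac2 KO mice, with no overlap. It fell by 16.1% (-0.25, SE 0.073, adjusted p = 0.0154), and the call was lost with the extraction date and in males only (range 9.80e-04 to 0.111 over 15 alternatives). In Htt+/+ mice its values were 18.5, 20.7 and 22.4 CPM with Hdac2 WT and 16.1, 19.3 and 24.5 CPM with Hdac2 KO (-0.06, adjusted p = 0.712), and without the single highest library of the latter group (replicate 8) the change was -0.19 with an adjusted p of 0.0496; over the 15 alternatives for this value the adjusted p ran from 0.0496 to 0.951. The remaining enzymes were the squalene synthase Fdft1, the epoxidase Sqle, Lss, the demethylase Cyp51, the reductase Tm7sf2, the oxidase Msmo1 and the dehydrogenase Nsdhl. None passed in the main fit of either contrast, with values between -0.14 (Tm7sf2 in Htt+/+ mice) and 0.11 (Fdft1 in Htt+/+ mice). Nsdhl passed in Htt+/+ mice without surrogate variables (0.17, adjusted p = 0.0206) and with the compared groups alone (0.15, adjusted p = 0.0156), but not with the ID series. Counts of Fdft1, Mvd and Tm7sf2 are uncertain, since each gene overlaps a more abundant one (Ctsb, Gm20388 and Vps51), and strand use in the counting is not given in the sources used here.

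The 2 ABC transporters that load cholesterol onto lipoproteins moved in opposite directions in Htt+/+ mice. Abca1 (chr4:53030787-53159895, minus strand) had 72.3, 79.7 and 89.8 CPM in Htt+/+ Hdac2 WT and 85.3, 98.2 and 109 CPM in Htt+/+ Hdac2 KO mice. In HttQ111/+ mice it had 72, 84 and 92.2 CPM with Hdac2 WT and 70.2, 103 and 109 CPM with Hdac2 KO. All 9 and 10 of 11 KO libraries were above the WT median of their background. Abca1 rose by 12.9% (0.18, SE 0.058, adjusted p = 0.0341) and by 11.2% (0.15, SE 0.051, adjusted p = 0.0369). The former call was lost under 3 of 15 alternatives (range 3.05e-04 to 0.171) and the latter under 7. The latter depended on the covariates and on the mice in the fit. Its adjusted p was 0.0556 without surrogate variables and 0.104 in males only. Without HttQ111/+ Hdac2 KO replicate 1, the deepest library, it was 0.0602. Leaving out Htt+/+ Hdac2 KO replicate 8, which is in neither group but in the fit, gave 0.0664. The range over 15 alternatives was 0.0105 to 0.301.

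Abcg1 was at 91.1, 99.9 and 103 CPM in Htt+/+ Hdac2 WT and at 84.1, 88.7 and 94.9 CPM in Htt+/+ Hdac2 KO mice, all below the WT median. It fell by 8.07% (-0.12, SE 0.035, adjusted p = 0.0132, lost under 4 of 15 alternatives in a range of 0.00109 to 0.134), and in HttQ111/+ mice its values were 88.6, 96 and 103 CPM against 82.3, 92.1 and 95.9 CPM (-0.06, adjusted p = 0.228). Cyp46a1 (chr12:108334377-108362231, plus strand) had 227, 260 and 290 CPM in Htt+/+ Hdac2 WT and 223, 233 and 264 CPM in Htt+/+ Hdac2 KO mice, 8 of 9 below the WT median. It fell by 7.94% (-0.12, SE 0.038, adjusted p = 0.0249). That call was lost under 5 of 15 alternatives, among them no surrogate variables (adjusted p = 0.0844) and males only (0.215), in a range of 0.00281 to 0.457. In HttQ111/+ mice it had 210, 227 and 250 CPM with Hdac2 WT and 195, 236 and 255 CPM with Hdac2 KO (-0.05, adjusted p = 0.312). Stard4 and Npc1, which carry cholesterol between membranes and out of lysosomes, did not pass in the main fit of either contrast, with values from -0.09 to 0.10. With the compared groups alone Npc1 passed in Htt+/+ mice (0.11, adjusted p = 0.0221) and in HttQ111/+ mice (0.10, adjusted p = 0.0473). It passed in neither without surrogate variables. Stard4 passed in HttQ111/+ mice without ID series A (-0.17, adjusted p = 0.0365), but not with the ID series as covariate. Apoe, also an astrocyte gene, gave -0.10 in Htt+/+ mice (adjusted p = 0.0679) and -0.08 in HttQ111/+ mice (adjusted p = 0.118) after the surrogate variables, while its scaled levels were 852, 1010 and 1070 CPM in Htt+/+ Hdac2 WT and 849, 1010 and 1140 CPM in Htt+/+ Hdac2 KO mice.

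Markers of cell types were read beside these calls. In contrast 1, 2 of 10 MSN markers rose and 2 fell, where 17.8% of all genes were called, 1 of 10 astrocyte markers fell, and none of 10 oligodendrocyte, 10 microglia or 6 endothelial markers passed. In HttQ111/+ mice 2 MSN markers rose, 1 astrocyte marker fell and again none of the oligodendrocyte, microglia and endothelial markers passed. Of the 6 choroid plexus markers 3 were tested in contrast 1, with 1 rise and 1 fall, and 4 in contrast 2, with 1 rise, and their summed level was 17.3 to 211 CPM over Htt+/+ Hdac2 WT libraries. The summed level of the astrocyte markers was 2540 to 3070 CPM in Htt+/+ Hdac2 WT and 2620 to 3280 CPM in Htt+/+ Hdac2 KO mice, and that of the oligodendrocyte markers 5930 to 8140 CPM and 6460 to 10400 CPM. Summed microglia markers were at 615 to 775 CPM and 733 to 852 CPM, and summed endothelial markers at 161 to 219 CPM and 167 to 240 CPM. The part of these cell types in the changes above was not tested. In bulk tissue a lower count may mean fewer cells of a type or less RNA per cell, and these cannot be told apart.

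The extraction dates allow few comparisons within a day. On 27 May the single Htt+/+ Hdac2 KO library differed from the mean of 3 Htt+/+ Hdac2 WT libraries by -0.32 for Srebf2, -0.46 for Acat2 and 0.24 for Abca1 on the log2 CPM scale. It differed by -0.21 for Abcg1 and by 0.04 for Sc5d. The differences for Insig2 (-0.05), Dhcr7 (-0.01), Ebp (0.01) and Cyp46a1 (-0.00) were near 0 or opposite to the change over all libraries. On 25 May the single HttQ111/+ Hdac2 KO library differed from the mean of 2 HttQ111/+ Hdac2 WT libraries by -0.18 for Srebf2, -0.31 for Acat2, 0.33 for Insig2, 0.36 for Abca1, -0.35 for Hsd17b7 and 0.04 for Nr1h2. With the date as a covariate in place of the surrogate variables, 2 members stayed called in contrast 1, Srebf2 (-0.26, adjusted p = 0.0352) and Acat2 (-0.40, adjusted p = 0.0027), and Acat2 alone in contrast 2 (-0.32, adjusted p = 0.0448). Over all 15 alternatives the adjusted p of Srebf2 lay between 2.63e-07 and 0.0352 in Htt+/+ mice. In HttQ111/+ mice it lay between 4.00e-09 and 0.15, the latter with the date. That of Acat2 lay between 2.21e-04 and 0.128 in Htt+/+ mice and between 0.0109 and 0.386 in HttQ111/+ mice. Each of these day-matched comparisons rests on 1 KO library, and the separation of date from Hdac2 genotype rests on the KO libraries of 25 and 27 May. The comparisons also cross ID series. On 27 May the KO library was of series Z and the Htt+/+ Hdac2 WT libraries of series V. On 25 May the KO library, the deepest of all, was of series A and the HttQ111/+ Hdac2 WT libraries of series V and Z.

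The second question was whether the HttQ111 allele alters the pathway at this age. None of the 30 members passed in HttQ111/+ Hdac2 WT against Htt+/+ Hdac2 WT mice (contrast 3, where 0.403% of 17133 genes were called) or in HttQ111/+ Hdac2 KO against Htt+/+ Hdac2 KO mice (contrast 4, 0.00584% of 17110 genes), and none passed for the average HttQ111 effect over both (1.27% of 17346 genes). DESeq2 called 0 members in each as well. At a nominal p under 0.05, edgeR gave 4 members in contrast 3, 4 in contrast 4 and 3 for the average, beside 10.9%, 7.52% and 12.3% of all genes. The median log2 fold changes of the members were 0.02, -0.03 and -0.00.

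The intervals describe the size of change that the fit allows, given its surrogate variables. They use a normal quantile of the SE and are somewhat narrower than the F test would give. The 95% intervals of all 30 members lay between -0.28 and 0.28 in contrast 3, between -0.30 and 0.14 in contrast 4, and between -0.24 and 0.13 for the average, the last being a decrease of 15.1% to an increase of 9.59%. In the same libraries 5 of 10 MSN markers fell in contrast 3 and 7 of 10 for the average effect, and their summed level was 8040 to 9170 CPM in Htt+/+ Hdac2 WT and 5860 to 7920 CPM in HttQ111/+ Hdac2 WT mice. None of the 10 oligodendrocyte markers was called in either, and 1 of 10 astrocyte markers fell in each. In contrast 4, where 1 gene was called in all, no marker of any list passed in edgeR, and DESeq2 called 2 MSN markers. At a nominal p under 0.05, edgeR gave 7 of 10 MSN markers (median change -0.15) and 4 of 10 oligodendrocyte markers (median -0.10). This compares with 7.52% of all genes. None of 10 astrocyte and 10 microglia markers and 1 of 6 endothelial markers reached that level. Their part in the members' values was not tested.

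**Figure D3:**
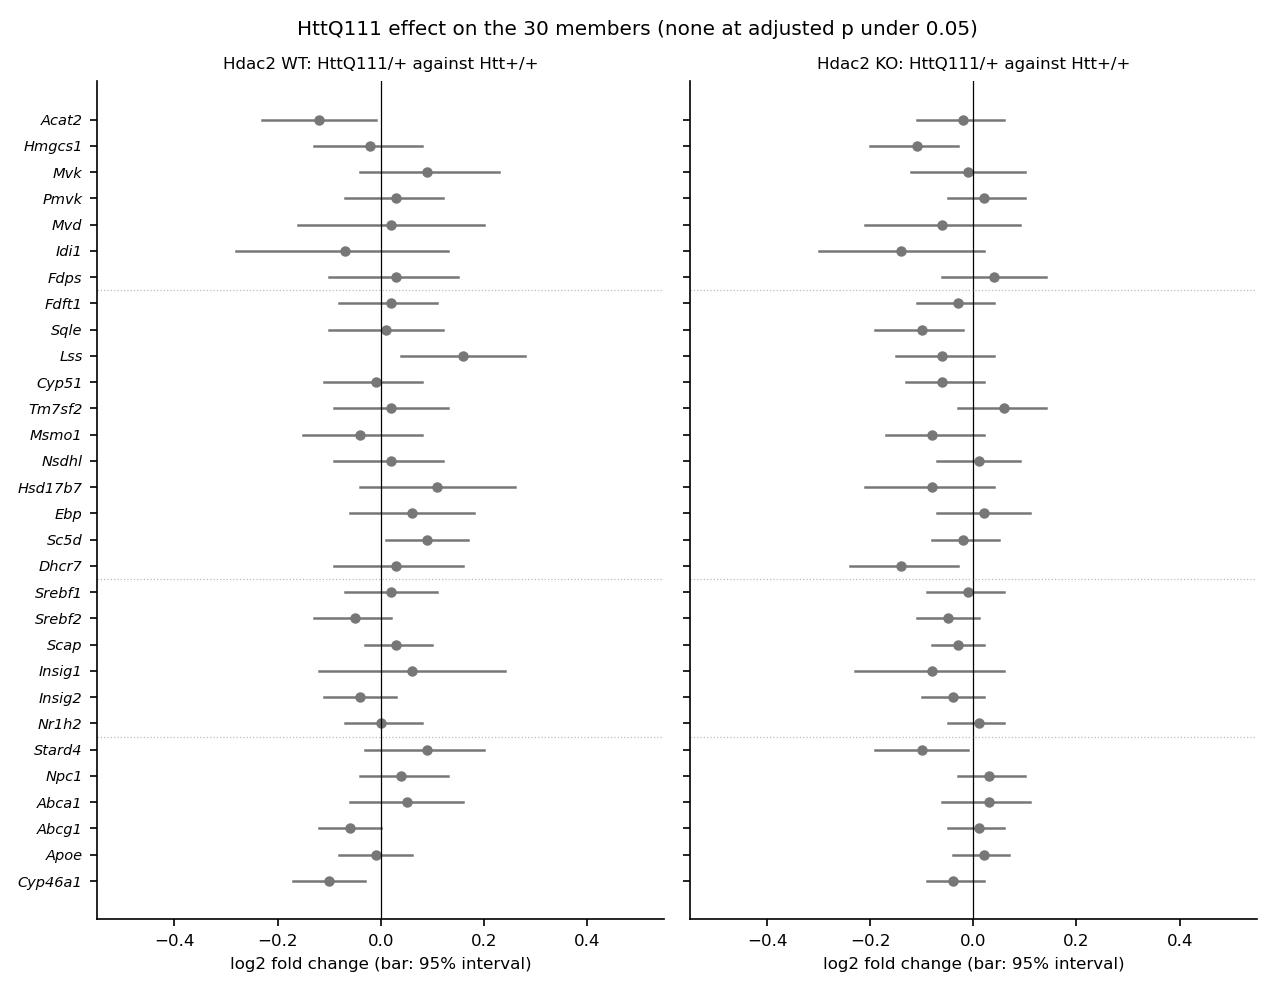
Log2 fold change (x axis) of each member (y axis) with the HttQ111 allele in Hdac2 WT mice (left) and in Hdac2 KO mice (right), from edgeR, with 95% intervals. No member passed an adjusted p of 0.05, and the intervals stay between -0.30 and 0.28.

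Cyp46a1 was the member with the smallest p. It was at 227, 260 and 290 CPM in Htt+/+ Hdac2 WT and at 210, 227 and 250 CPM in HttQ111/+ Hdac2 WT mice, all 7 below the median of the former. Its log2 fold change was -0.10 in contrast 3 (SE 0.036, nominal p = 0.00666, edgeR adjusted p = 0.238), -0.04 in contrast 4 (adjusted p = 0.842) and -0.07 on average (nominal p = 0.00469, adjusted p = 0.152). Within the 3 extraction days that hold both groups the difference was -0.08 on 24 May, -0.25 on 25 May and -0.24 on 27 May.

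The call for Cyp46a1 depended on the covariates and on the mice in the fit. With the date as covariate its change in contrast 3 was -0.19 (adjusted p = 0.0472), with the ID series (the first letter of the mouse ID in the label, whose meaning is not given in the sources used here) -0.20 (adjusted p = 0.0078), and without the mice of series A -0.19 (adjusted p = 0.00614). Among HttQ111/+ mice the CAG length was 131 to 144 repeats in series V, 110 to 118 in series A and 110 to 115 in series Z. Series V therefore cannot be told apart from longer repeats, while A and Z overlap in length. Leaving out series A removes some carriers of shorter repeats and keeps those of series Z. Within series, Cyp46a1 differed by -0.09 in A (2 against 2 mice), -0.24 in V (5 against 3) and -0.28 in Z (1 against 2). Over its 15 alternatives in contrast 3 the adjusted p ran from 0.00614 to 0.757 and the change from -0.20 to -0.08. Srebf2 also passed with the ID series as covariate (-0.15, adjusted p = 0.0319 in contrast 3, in a range of 0.0319 to 0.915). Its differences on the same 3 days were -0.05, -0.13 and -0.22. Apoe was at 852, 1010 and 1070 CPM in Htt+/+ Hdac2 WT and at 820, 915 and 1040 CPM in HttQ111/+ Hdac2 WT mice, 6 of 7 below the median of the former. HttQ111/+ Hdac2 KO mice had 761, 966 and 1120 CPM. The change of Apoe in contrast 3 was -0.01 after the surrogate variables, or -0.16 without series A (adjusted p = 0.0492, in a range of 0.0492 to 1). For the average effect Cyp46a1 gave -0.11 with the ID series (adjusted p = 0.026) and -0.13 without series A (adjusted p = 0.00475), Srebf2 gave -0.11 in both (adjusted p = 0.0139 and 0.0479), and Msmo1 gave -0.18 without series A (adjusted p = 0.00387). These lie in ranges of 0.00475 to 0.814, 0.0139 to 0.902 and 0.00387 to 0.987 over 14 alternatives.

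The remaining members with the smallest p in contrasts 3 and 4 had no adjusted p under 0.05. Lss was at 17.1, 18.4 and 19.5 CPM in Htt+/+ Hdac2 WT and at 17.7, 19.2 and 21.3 CPM in HttQ111/+ Hdac2 WT mice (0.16, adjusted p = 0.305), and at 17, 18.9 and 25.4 CPM against 13.2, 17.6 and 20.6 CPM in the Hdac2 KO groups (-0.06, adjusted p = 0.864). The difference between the 2 changes of Lss was -0.22 (SE 0.077), the smallest nominal p of the members for the interaction (0.00851, edgeR adjusted p = 0.716). In contrast 3, Sc5d gave 0.09, Acat2 -0.12 and Abcg1 -0.06, with adjusted p of 0.425, 0.428 and 0.531 in edgeR. The per-library ranges of the compared groups overlapped for all of them.

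The 4 members with a nominal p under 0.05 in contrast 4, Hmgcs1, Dhcr7, Sqle and Stard4, all had values below 0. Hmgcs1 was at 183, 205 and 248 CPM in Htt+/+ Hdac2 KO and at 161, 188 and 228 CPM in HttQ111/+ Hdac2 KO mice (-0.11, adjusted p = 0.485). Sqle was at 29.1, 37 and 41.9 CPM against 27.6, 34.6 and 41.2 CPM (-0.10, adjusted p = 0.579). Stard4, an SREBP2 target that shuttles cholesterol through the cytosol, was at 28.8, 33 and 36.9 CPM against 27.7, 31.5 and 36.8 CPM (-0.10, adjusted p = 0.65), and Dhcr7 gave -0.14 (adjusted p = 0.512), with all 11 libraries below the Htt+/+ Hdac2 KO median. In the Hdac2 WT groups Hmgcs1 was at 179, 207 and 231 CPM against 162, 200 and 235 CPM, Sqle at 29.4, 37.1 and 42.2 CPM against 32, 35.5 and 42.5 CPM, and Stard4 at 26.9, 31.2 and 38.1 CPM against 31, 34.1 and 36.4 CPM. The ranges of the compared groups overlapped for all 4. For the average effect, Hmgcs1 gave -0.07 (adjusted p = 0.405), Srebf2 -0.05 (0.374), Acat2 -0.07 (0.411) and Insig2 -0.04 (0.505).

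Mice with both changes were compared with Htt+/+ Hdac2 WT mice in contrast 5, which shares its libraries with contrasts 1 to 4. Here 6 members rose (Abca1, Ebp, Insig2, Sc5d, Pmvk and Nr1h2), 4 fell (Srebf2, Acat2, Cyp46a1 and Abcg1) and 20 did not pass, beside 21.2% of the 17088 genes tested. In this contrast 7 of 10 MSN markers fell and 1 rose, and 3 of 10 astrocyte markers fell, and their part in the members' values was not tested. Pmvk was the one not called in contrasts 1 and 2, with 18.7, 21.5 and 23.8 CPM in Htt+/+ Hdac2 WT and 21.2, 25 and 28.4 CPM in HttQ111/+ Hdac2 KO mice. It rose by 9.74% (0.13, SE 0.048, adjusted p = 0.0456), with changes of 0.09 to 0.23 over 15 alternatives and an adjusted p of 0.00102 to 0.485, above the threshold in 4 of them, while the other 2 groups had 20.4, 21.6 and 25.8 CPM (HttQ111/+ Hdac2 WT) and 22.2, 24.4 and 29.8 CPM (Htt+/+ Hdac2 KO). Acat2 fell by 18.8% (adjusted p = 1.98e-04) and Cyp46a1 by 10.5% (adjusted p = 0.00141), and Abca1 rose by 15% (adjusted p = 0.00749). The calls of Sc5d and Nr1h2 were lost under 9 and 7 of 15 alternatives, in ranges of 0.0357 to 0.798 and 0.0027 to 0.457. Without surrogate variables the adjusted p of Sc5d was 0.182. Without HttQ111/+ Hdac2 KO replicate 1 it was 0.0884 for Sc5d and 0.0694 for Nr1h2. Without Htt+/+ Hdac2 KO replicate 8, which is in neither group but in the fit, the adjusted p of Nr1h2 was 0.0876 and Hsd17b7 passed (-0.20, adjusted p = 0.0101, in a range of 0.0101 to 0.454). Npc1 passed when either library was left out (0.12, adjusted p = 0.0427 and 0.0398, in a range of 0.0228 to 0.844).

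Of 56 other genes of the pathway, all present in the table, 54 were tested in each of contrasts 1 to 4. Of these, 6 rose and 3 fell in contrast 1 and 5 rose and 5 fell in contrast 2, so that 9 and 10 of 54 were called, near the 17.8% and 16.5% of all genes. None was called in contrasts 3 and 4, where 9 and 6 had a nominal p under 0.05, beside 10.9% and 7.52% of all genes. DESeq2 called 1 in contrast 3 and 0 in contrast 4. Mbtps1, the site-1 protease that releases SREBP2 in the Golgi, fell by 0.36 on the log2 scale in Htt+/+ mice (SE 0.039, adjusted p = 4.01e-08) and by 0.27 in HttQ111/+ mice (adjusted p = 8.41e-07). Cyb5r3, the reductase that passes electrons to sterol oxidases and desaturases, rose by 0.44 (adjusted p = 1.32e-09) and 0.27 (adjusted p = 1.85e-06). Soat1, which esterifies cholesterol for storage, rose by 0.25 (adjusted p = 0.00734) and 0.24 (adjusted p = 0.00342), and Gramd1a, a sterol carrier between plasma membrane and endoplasmic reticulum, by 0.16 and 0.13. Acaca, the first enzyme of fatty acid synthesis, rose by 0.23 (adjusted p = 9.46e-06) and 0.14 (adjusted p = 0.00175), and Pgrmc1, a heme-binding partner of cytochrome P450 enzymes, fell by 0.13 and 0.12.

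In all, 13 of the other genes passed in at least 1 contrast, and the 10 with the smallest adjusted p are named. 4 of these were called in 1 Hdac2 contrast each. Cyp7b1, an oxysterol hydroxylase, rose by 0.21 in Htt+/+ mice (adjusted p = 0.0137) with 0.08 in HttQ111/+ mice, and Pnpla3, a lipid hydrolase, rose by 0.28 (adjusted p = 0.0185) with 0.11. Lcat, which esterifies cholesterol on lipoproteins, fell by 0.25 in Htt+/+ mice (adjusted p = 0.0161) with 0.04 in HttQ111/+ mice. Osbpl1a, a sterol-binding protein, fell by 0.58 in HttQ111/+ mice (SE 0.098, adjusted p = 7.40e-05) with -0.11 in Htt+/+ mice, and its HttQ111 value in Hdac2 WT mice was 0.44 (adjusted p = 0.0501). None of the 54 other genes tested passed for the interaction, where 8 (14.8%) had a nominal p under 0.05, beside 5.63% of all genes, and DESeq2 called 0.

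Within groups some members varied together from mouse to mouse and others less so. Over the 35 libraries, with group means subtracted, the median Pearson r of the 153 pairs among the 18 synthesis enzymes was 0.33 (from -0.29 to 0.84), and that of all 435 pairs of members was 0.22. For single members the median r with all other genes tested was between -0.02 and 0.02. The closest pair was Hmgcs1 and Cyp51 (r = 0.84), followed by Msmo1 and Insig1 (r = 0.81). A block of 7 members chosen after these values were seen, Hmgcs1, Mvd, Idi1, Sqle, Cyp51, Msmo1 and Insig1, gave r of 0.29 to 0.84 with each other (median 0.72). The edge of this block is not sharp. Sc5d gave r of 0.53 to 0.71 and Nsdhl 0.42 to 0.64 with its members, while Idi1 within it gave 0.29 with Insig1. These values describe libraries that share depth, sex and extraction day, and no test was made of them.

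Srebf2 was closest to Scap (r = 0.78), its escort, rather than to the enzymes. Nr1h2 was closest to Apoe (r = 0.74), a known LXR target, but gave -0.07 with Abca1 and -0.24 with Abcg1, the transporters under LXR control. Of all genes tested, 8.46% had an r over 0.5 with Nr1h2. Insig2 went against most of the pathway: its median r with the other 29 members was -0.22, with -0.53 for Apoe, Mvk and Nsdhl, and its highest r was 0.41 with Abcg1. Abca1 and the squalene synthase Fdft1 had the lowest r of all pairs (-0.58). The 6 transport genes had a median r of -0.05 among themselves. Acat2, although it carries out the first step, had no r above 0.44 (with Sqle), and Ebp none above 0.37 (with Idi1).

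**Figure D4:**
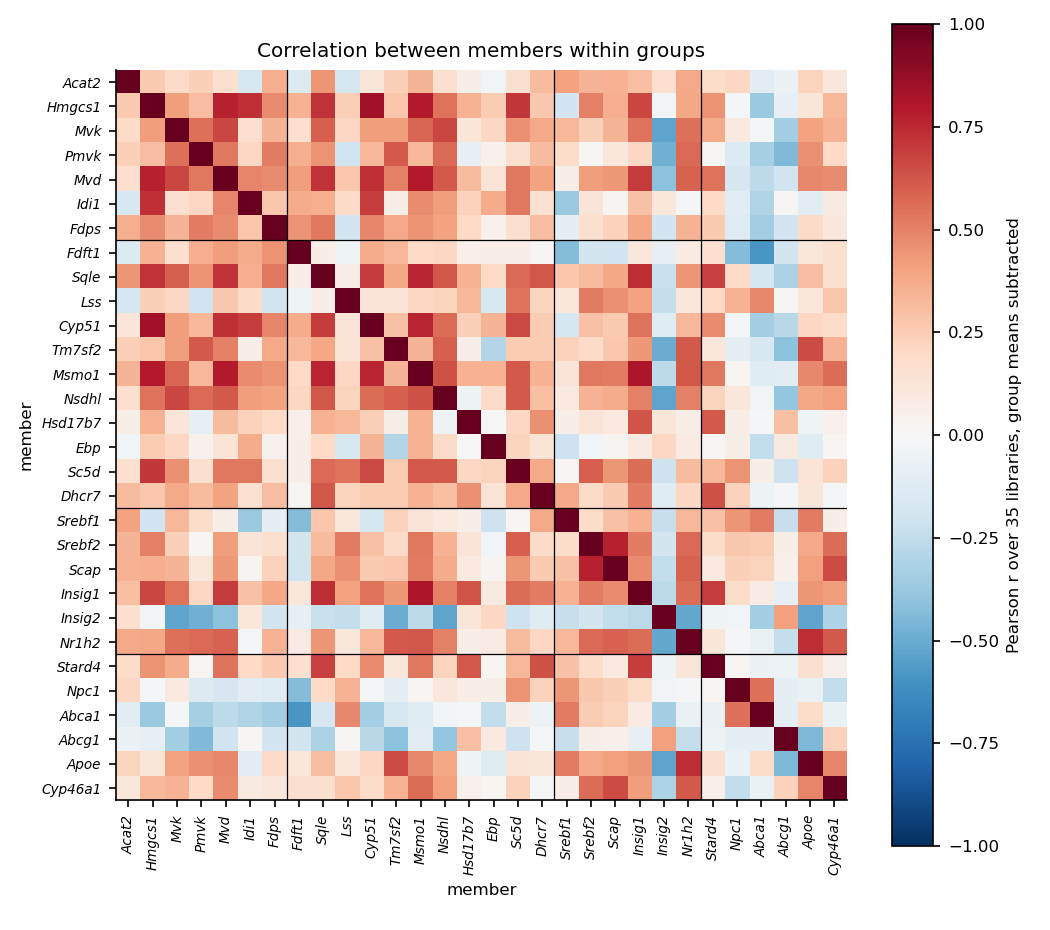
Pearson r between every pair of members over 35 libraries after subtraction of group means (colour scale from -1, blue, to 1, red; lines separate the 4 roles in the order of the fold change plots). Hmgcs1, Mvd, Idi1, Sqle, Cyp51, Msmo1 and Insig1 have a median r of 0.72 with each other, and the row of Insig2 is mostly blue (median -0.22).

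The block of 7 separated single mice within each group. The 7 were chosen because they co-vary in these libraries, so mice in which they deviate together follow from that choice. Its median deviation from the group mean was highest in Htt+/+ Hdac2 KO replicate 8 (0.31, with all 7 above the mean and 24 of the 30 members above theirs) and in HttQ111/+ Hdac2 KO replicate 3 (0.26). It was lowest in HttQ111/+ Hdac2 KO replicate 8 (-0.34, none of the 7 and 4 of the 30 above the mean) and in Htt+/+ Hdac2 WT replicate 8 (-0.30). All 4 of these mice were male. The log2 fold change farthest from 0 among the 7 members in contrasts 1 to 4 was -0.16 (Insig1 in contrast 2). It is a group difference fitted with surrogate variables, while the deviations are of single libraries without them, so their sizes are not directly comparable.

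**Figure D5:**
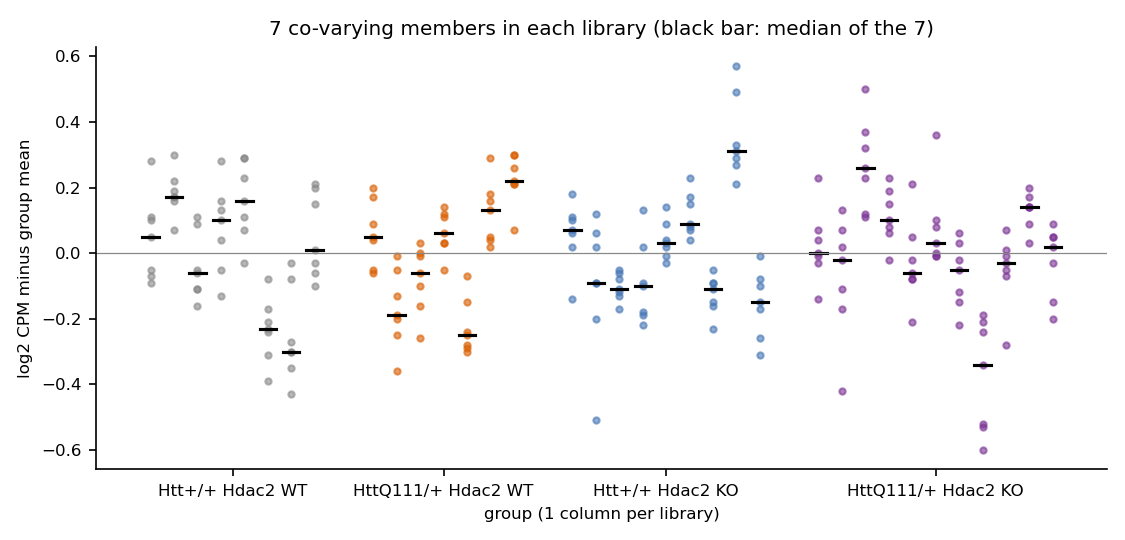
Log2 CPM minus the group mean (y axis) of 7 co-varying members in each of the 35 libraries, 1 column per library in its group (x axis); points are genes and black bars are their median. The medians run from -0.34 to 0.31, with several mice of each group well above or below 0.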

How the data were processed

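Striatal RNA of 35 mice was sequenced, with 1 library per mouse and between 50970712 and 77867348 counts per library. The authors aligned reads with GSNAP to GRCm38 and counted unique alignments per Ensembl gene with bedtools, and the deposited values are raw counts; SAMtools, FastQC and edgeR are also named in the submitters' processing notes.

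From 39109 entries, the 92 ERCC spike-ins, 2 genes of mitochondrial rRNA and 6152 genes no longer than 250 nt were removed. A gene was tested where all libraries of 1 or more compared groups held 6 counts or more (4 groups for the interaction and the average effect) in R 4.3.3 with edgeR 4.0.16: TMM scaling, 1 quasi-likelihood model of the 4 groups over all 35 libraries with 9 surrogate variables from sva 3.50.0, and Benjamini-Hochberg adjustment over all genes tested (threshold 0.05). CPM are TMM-scaled counts relative to library size without the surrogate variables, so a fitted change can differ from the difference of CPM. DESeq2 1.42.0 was an alternative. Statistical steps were tested on simulated data.

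The 30 members and all other lists were chosen with earlier results of these data known. All members are named. Values per library are given for members with an adjusted p under 0.05 in any comparison, for the 5 smallest nominal p in contrasts 3 and 4 and the average effect, and for the most abundant. Promoters are from RefSeq (GRCm38.p6).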

Additional observations from a re-analysis of the deposited data

Results flagged for a closer look

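In 7 of 90 combinations of a member and a group, the highest or lowest library stood apart from the rest by Dixon's test at the 95% level, and chance alone marks about 1 in 20 groups. The HttQ111/+ Hdac2 KO group of 11 was not examined. 4 of the 7 were 1 library, Htt+/+ Hdac2 KO replicate 8, which was highest in its group for Hmgcs1 (248 CPM, next 213 CPM), Lss (25.4 CPM, next 20.1 CPM), Hsd17b7 (24.5 CPM, next 20.1 CPM) and Insig1 (77.8 CPM, next 55 CPM). The others were Nsdhl at 20.7 CPM in HttQ111/+ Hdac2 WT replicate 7 (next 18.1 CPM), Ebp at 17.4 CPM in Htt+/+ Hdac2 WT replicate 9 (next 14.3 CPM) and Srebf1 at 52.2 CPM, the lowest, in Htt+/+ Hdac2 WT replicate 1 (next 64.4 CPM).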

How the results depend on the processing

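Across 15 alternatives (14 for the interaction and the average effect) no called member changed direction. RLE scaling and the newer form of edgeR's test kept every call of contrasts 1, 2 and 5. The number of members called was 9 in contrast 1, and 2 when the extraction date replaced the surrogate variables, 2 with the replicate number as a block, and 14 with the compared groups alone. In contrast 2 it was 6, and 1 with the date. In contrast 3 it was 0, and 1 with the date, 2 with the ID series and 2 without series A. In contrast 5 it was 10, and 2 with the date, 5 with the block, 16 with the compared groups alone and 6 in males only. For the average effect it was 0, and 2 with the ID series and 3 without series A. The causes were not tested. Contrast 4 and the interaction gave 0 under every alternative. DESeq2 kept every call of contrasts 1 and 2 and gained Apoe in contrast 1 and Ebp in contrast 2. Leaving out Htt+/+ Hdac2 KO replicate 8 gave 9, 5, 0, 0 and 11 calls in contrasts 1 to 5, and leaving out the deepest library 9, 4, 0, 0 and 9; both were chosen after seeing the data. Libraries with the same replicate number had a median r of 0.0418 over 45 pairs, with 15 over 0.1. The 410 other pairs had a median of -0.00981, with 85 over 0.1. Both medians were near 0, and the numbers were not taken to pair mice. Under the block contrast 2 had 4 calls. Counts per library limited no member.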
